A study of Mus musculus with 10 samples.

Results

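Il17a, Il17f and Il22 encode the cytokines most closely tied to type 17 lymphocytes, and their transcripts were followed in T cells from mouse melanomas treated with myeloid-targeted immunotherapy. The 3 genes were the rows of the deposited table with these symbols, out of 48825 genes in all, and each was among the 15716 genes that passed the filter on low values. They were chosen from the measured values of these same libraries, in which they were lower with CD40 antibody alone than in control. Their levels in those 2 groups are therefore a description and carry no test.

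Interleukin 17A and interleukin 17F are secreted as homodimers or as a joint heterodimer, bind a shared receptor on epithelial, stromal and myeloid cells, and raise chemokines that draw in neutrophils. Interleukin 22 belongs to the IL-10 family and acts mainly on epithelial cells. All of them are made by Th17 cells, by gamma delta T cells and by group 3 innate lymphoid cells, where IL-23 and IL-1 sustain the program.

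The tumors arose in mice that carry the BrafCA and Tyr::CreER alleles, a strain in which a melanocyte promoter drives an inducible Cre recombinase that activates mutant Braf, after local induction. Treatment began 30 days after induction, at a total tumor volume under 100 mm3, and lasted 30 days or until tumors reached 2 cm3. The CD40 group (3 libraries) received the agonistic antibody FGK4.5 by intraperitoneal injection, 10 mg/kg for up to 10 treatments, on normal chow. The CSF1Ri group (2 libraries, called 1 and 6 here, of which the first carries no number in its title) received chow with 600 mg/kg of PLX6134, an inhibitor of the receptor that macrophages need to survive. The CSF1Ri+CD40 group (2 libraries, numbered 1 and 3) received both agents, and the control group (3 libraries) received normal chow and PBS. Every library pooled at least 3 tumors, so that single mice cannot be seen, and ages are not given beyond age matching. The genotype label reads wild type in every sample, against the strain label, and the tissue label reads tumor associated macrophages, against titles that name T cells.

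The transcripts matched the titles. All 10 T cell markers were above 0 in every library, with summed normalized counts of 91785 to 155458, while the 10 macrophage markers summed to 525 to 2609. The normalized totals ran from 11538244 to 14024851 per library. They are scaled values and not sequencing depths, which are unknown here, so that no counting interval can be given. The 4 Y-linked transcripts examined summed to 1569 and 3072 in CD40 libraries 2 and 3 and to 2438 in control library 1, against at most 1 in each of the other 7 libraries. Library CD40 3 also had the highest Malat1 level (95260) and the lowest mitochondrial sum (123380). In bulk RNA of this kind, fewer cells of a type and less RNA per cell cannot be told apart.

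The promoters are shown because the 3 genes share regulators in type 17 cells. Each line gives the 250 bases before the transcription start in RefSeq (assembly GRCm38.p6), read 5′ to 3′ on the strand of the gene, with motif matches in capitals. The windows lie at chr1:20730655-20730904 (plus strand, Il17a), chr1:20784271-20784520 (minus strand, Il17f) and chr10:118204714-118204963 (plus strand, Il22). In the GENCODE annotation used below, Il17f begins farther upstream, at 20790617, and Il22 begins at 118204942, inside its window. The windows therefore depend on the annotation, and positions in them are not strictly comparable between the genes.
Il17a: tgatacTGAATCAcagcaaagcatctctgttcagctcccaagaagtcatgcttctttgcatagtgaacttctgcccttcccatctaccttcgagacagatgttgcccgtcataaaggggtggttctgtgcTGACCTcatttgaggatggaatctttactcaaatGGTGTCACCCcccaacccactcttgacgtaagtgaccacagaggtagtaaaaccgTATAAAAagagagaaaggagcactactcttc
Il17f: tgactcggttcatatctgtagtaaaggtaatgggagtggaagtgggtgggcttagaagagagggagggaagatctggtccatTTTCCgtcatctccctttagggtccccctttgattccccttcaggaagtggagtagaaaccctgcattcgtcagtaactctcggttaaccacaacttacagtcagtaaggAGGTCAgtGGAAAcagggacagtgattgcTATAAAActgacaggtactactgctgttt
Il22: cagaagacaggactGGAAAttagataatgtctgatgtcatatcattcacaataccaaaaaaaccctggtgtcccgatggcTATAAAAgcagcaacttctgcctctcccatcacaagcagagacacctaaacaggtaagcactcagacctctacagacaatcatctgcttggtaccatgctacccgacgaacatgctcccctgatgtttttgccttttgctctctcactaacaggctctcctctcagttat

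The half-site of nuclear receptors was searched as AGGTCA, and the STAT motif as TTCNNNGAA, each on both strands. The NFAT core was searched in the same way as GGAAA, and AP-1 as TGANTCA. The NF-kB motif had 10 letters. The letters TATAAAA, of the box that positions RNA polymerase, were added after the sequences had been read. Positions count back from the base before the start. Il17a held the nuclear receptor half-site at -120 to -115 on the opposite strand, an AP-1 match at -244 to -238, an NF-kB match at -86 to -77 on the opposite strand and a TATAAAA match at -31 to -25. Il17f held the nuclear receptor half-site at -58 to -53, next to an NFAT core at -50 to -46, a further NFAT core at -168 to -164 on the opposite strand and a TATAAAA match at -29 to -23. Il22 held an NFAT core at -236 to -232 and a TATAAAA match at -170 to -164. The nuclear receptor half-site thus appeared in the windows of both Il17 genes, and the letters AGGTCA were not in the Il22 window. No match overlapped another, and none of the windows held the STAT letters. Of 32851 promoter windows of this length, 14% held AGGTCA, 7.02% the STAT letters, 55.6% the NFAT core, 6.75% the AP-1 letters, 45.8% the NF-kB motif and 4.98% TATAAAA. Such matches are a description of sequence and not evidence of binding.

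In GENCODE vM21 (GRCm38), Il17a lies on chromosome 1 from 20730905 to 20734496 (plus strand) and Il17f from 20777146 to 20790617 (minus strand), 42650 bases apart. Il22 lies on chromosome 10 from 118204942 to 118210047 (plus strand), with its near-copy Iltifb 79582 bases and Ifng 230999 bases away. No annotated gene overlaps any of them, so the lack of strand information in these libraries does not mix their reads with those of an antisense gene. The Il22 and Iltifb transcripts were identical at 97.4% of aligned bases, and 29.9% of the 75-base windows of Il22, the read length used, also occurred in Iltifb. Reads from those stretches cannot be assigned to either copy, so the Il22 values are uncertain to that extent. Il17a and Il17f shared no 75-base window.

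Il17a was lowest with CD40 antibody alone, intermediate in both groups given the CSF1R inhibitor, and highest in control. Its normalized counts were 485, 155 and 128 in the CD40 libraries, 1070 and 1138 in the CSF1Ri libraries, 1215 and 978 in the CSF1Ri+CD40 libraries, and 3182, 3672 and 4222 in control. The CD40 libraries lay below all others and the control libraries above all others, while the CSF1Ri and CSF1Ri+CD40 values were interleaved. In control, Il17a ranked between 449 and 603 among the genes of each library by normalized count, whereas in the CD40 libraries it ranked between 4016 and 8390.

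Il17f also had its lowest mean in the CD40 group and its highest in control, with more spread. It stood at 2058, 188 and 86 normalized counts in the CD40 libraries, 2044 and 3067 in the CSF1Ri libraries, 3997 and 4370 in the CSF1Ri+CD40 libraries, and 3196, 7086 and 6212 in control. Library CD40 1 was level with the lower CSF1Ri library and far above CD40 2 and CD40 3. The CSF1Ri+CD40 values lay within the control range.

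Il22 was the least abundant of the 3 and had a different order. Its normalized counts were 12, 2 and 67 in the CD40 libraries, 11 and 58 in the CSF1Ri libraries, 455 and 419 in the CSF1Ri+CD40 libraries, and 191, 294 and 231 in control. Both single-agent groups were low and overlapped each other, control was intermediate, and the CSF1Ri+CD40 libraries were above every other library. Iltifb, counted as a gene of its own, had 17, 0 and 0 in the CD40 libraries, 3 and 12 in the CSF1Ri libraries, 0 and 0 in the CSF1Ri+CD40 libraries, and 49, 0 and 0 in control, so that it took no counts where Il22 was highest.

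**Figure D1:**
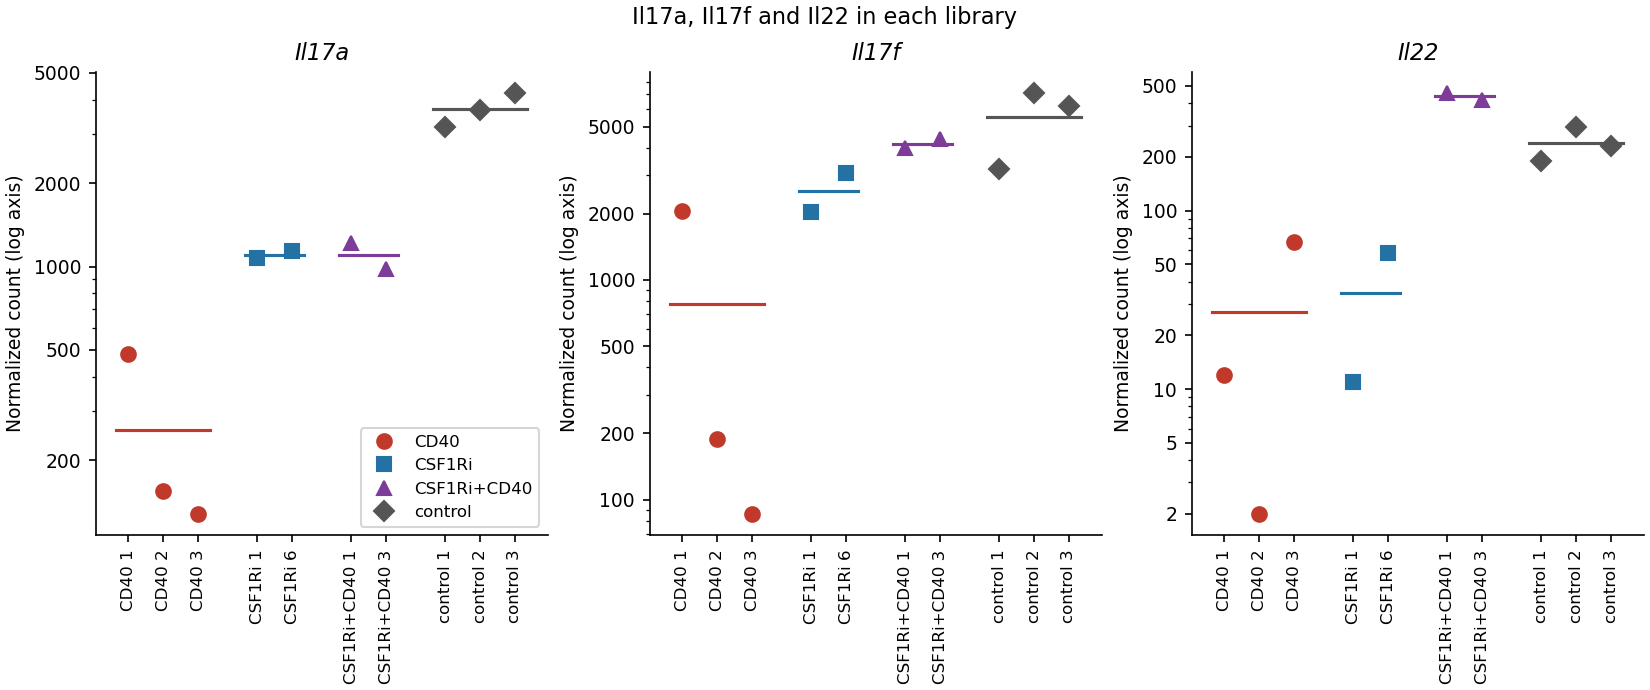
Normalized counts (log axis) of Il17a, Il17f and Il22 in each of the 10 libraries, where points are libraries and horizontal lines are group means. Il17a separates the CD40 libraries (128 to 485) from control (3182 to 4222), with both CSF1R inhibitor groups between (978 to 1215), while Il22 is highest in the CSF1Ri+CD40 libraries (419 and 455).

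With CD40 antibody alone, each of the 3 genes was lower than in control, with no overlap between the groups. Il17a averaged 256 ± 199 normalized counts in CD40 libraries and 3692 ± 520 in control (SD, n = 3 each), a log2 fold change of -4.10 ± 0.41 (SE) on the log2(normalized count + 1) scale. Il17f gave -4.01 ± 0.86 and Il22 -4.09 ± 1.01, or 16.1-fold to 17.2-fold on this scale of mean log2 values. In plain means, Il17f stood at 777 ± 1110 in CD40 libraries and 5498 ± 2041 in control, and Il22 at 27.0 ± 35.0 and 239 ± 51.9 (SD, n = 3 each), which are smaller ratios than on the log scale. Whether the genes differed from one another was not tested. Among 15716 genes ordered by this fold change, they stood at places 59, 72 and 60 from the lowest. Of all genes tested, 4.91% were lower in CD40 libraries without overlap, and 0.00636% (1 gene, Il17a itself) passed an adjusted p of 0.05 by limma. Because this contrast chose the genes, nothing is read from that share, and the passing of Il17a is no test of it. No gene passed without CD40 2 or without any 1 of the control libraries. The Il17f difference leaned on libraries CD40 2 and CD40 3: it was -5.34 without CD40 1 and -3.06 without CD40 3. The Il22 difference was -2.99 without CD40 2 and -5.24 without CD40 3.

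These low CD40 libraries are not matched to control in every other respect. Libraries CD40 2, CD40 3 and control 1 hold the Y-linked transcripts. Among those 3 libraries the difference in mean log2 level, CD40 minus control, was -4.49 for Il17a, -4.64 for Il17f and -3.75 for Il22. Among the libraries without these transcripts, where CD40 1 faces control 2 and control 3, it was -3.02, -1.69 and -4.33 in the same gene order. Each of these splits has 1 library on one side and 2 on the other, and both use the libraries that chose the genes. The 6 erythroid markers, of which Slc4a1 was at 0 throughout, summed to 876 to 1195 in CD40 libraries and 2940 to 15906 in control. The 10 mast cell markers summed to 3833 to 30174 in CD40 libraries and 890 to 2999 in control. The 12 markers of innate lymphoid and NK cells summed to 35774 to 86611 in CD40 libraries and 32002 to 49061 in control, with none at 0. The part of these differences in the cytokine result was not tested.

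With the CSF1R inhibitor alone, the 3 genes were again below every control library, but to unequal extents. The log2 fold changes were -1.73 ± 0.46 for Il17a, -1.05 ± 0.96 for Il17f and -3.15 ± 1.12 for Il22 (SE), or 3.32-fold, 2.08-fold and 8.87-fold lower. Of all genes, 10.3% were lower without overlap in this contrast and 0.00636% (1 gene, Anxa8) passed the adjusted threshold by limma, so being lower without overlap was common. With any 1 library left out, 0 genes passed. Several marker sums also separated these groups. The erythroid sum was 1318 and 2729 in CSF1Ri libraries and 2940 to 15906 in control, and the 8 neutrophil markers, of which Mmp8 and Camp were at 0 throughout, summed to 98 and 127 in CSF1Ri libraries and 145 to 174 in control. The 10 keratinocyte markers summed to 513 and 561 in CSF1Ri libraries (with Anxa8 at 0) and 1439 to 2684 in control, the 8 fibroblast markers to 2443 and 2495 in CSF1Ri libraries and 4267 to 4720 in control, and the macrophage markers to 536 and 895 in CSF1Ri libraries and 899 to 1211 in control. The sums for T cells (130962 and 143627 in CSF1Ri libraries, 91785 to 115292 in control) and for innate lymphoid and NK cells (67992 and 85331 in CSF1Ri libraries, 32002 to 49061 in control) were higher. Their part in the cytokine result was not tested. The Il22 difference was -2.0 without CSF1Ri 1 and -4.30 without CSF1Ri 6.

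With both agents, the 3 genes parted relative to control. Il17a stayed below every control library (log2 fold change -1.75 ± 0.46), where 9.6% of genes were lower without overlap. Il17f overlapped control (-0.32 ± 0.96), and Il22 lay above every control library (0.89 ± 1.12), where 10.6% of genes were higher without overlap. No gene passed the adjusted threshold by limma (0%, with 849 genes at an unadjusted p under 0.05). Without CSF1Ri+CD40 1, 36 genes passed, without CSF1Ri+CD40 3, 7, and without CD40 3, 1. The erythroid sum was 13 and 501 in CSF1Ri+CD40 libraries and 2940 to 15906 in control, and the neutrophil sum 60 and 89 in CSF1Ri+CD40 libraries and 145 to 174 in control. The T cell sum was 133931 and 137639 in CSF1Ri+CD40 libraries and 91785 to 115292 in control, and that of innate lymphoid and NK cells 56858 and 68381 in CSF1Ri+CD40 libraries and 32002 to 49061 in control. The part of these sums was not tested. All of these contrasts share the control libraries and so are not independent of one another.

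Whether CD40 antibody altered the 3 genes in inhibitor-treated tumors was the comparison that sets 2 groups other than CD40 and control against each other, and it was tested. The spread behind its errors was still estimated from all 10 libraries, the CD40 and control ones included. Il22 averaged 437 ± 25.5 normalized counts in CSF1Ri+CD40 libraries and 34.5 ± 33.2 in CSF1Ri libraries (SD, n = 2 each), a log2 fold change of 4.04 ± 1.23 (SE), 16.4-fold, with a 95% interval of 1.34 to 6.74. Both CSF1Ri+CD40 libraries were higher than both CSF1Ri libraries, and the unadjusted p by limma was 0.00693, but the p adjusted over all genes was 1. In a limma fit of these 4 libraries alone, the adjusted p was 0.766 for Il22, 0.766 for Il17f and 0.996 for Il17a. Il17f was likewise higher in both libraries without passing the test, at 0.74 ± 1.05 with an interval of -1.57 to 3.05 (adjusted p = 1 by limma). Il17a showed no detectable difference, at -0.02 ± 0.51 with an interval of -1.13 to 1.09 (adjusted p = 1 by limma). That interval allows CSF1Ri+CD40 levels of 0.458 to 2.13 times the CSF1Ri level. No gene of the 15716 passed in this contrast (0%, with 563 at an unadjusted p under 0.05), and 16.5% were higher without overlap. Without CSF1Ri+CD40 1, 6 genes passed, and without CSF1Ri+CD40 3, 1, none of them a member, since the lowest adjusted p of any member over all alternatives was 0.766 by limma. Between the same libraries, the erythroid sum was 13 and 501 in CSF1Ri+CD40 libraries and 1318 and 2729 in CSF1Ri libraries, and the neutrophil sum 60 and 89 in CSF1Ri+CD40 libraries and 98 and 127 in CSF1Ri libraries. The keratinocyte sum was 608 and 2765 in CSF1Ri+CD40 libraries and 513 and 561 in CSF1Ri libraries, and the fibroblast sum 2736 and 5593 in CSF1Ri+CD40 libraries and 2443 and 2495 in CSF1Ri libraries. The part of these sums in the Il22 difference was not tested. The Il22 difference was 2.89 without CSF1Ri 1 and 5.19 without CSF1Ri 6.

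Relative to CD40 antibody alone, the combination had higher levels of each gene. The log2 fold changes of CSF1Ri+CD40 over CD40 were 2.35 ± 0.46 for Il17a, 3.69 ± 0.96 for Il17f and 4.98 ± 1.12 for Il22 (SE), or 5.10-fold, 12.9-fold and 31.6-fold, and the groups did not overlap for any of them. The background for higher without overlap was 8.19% of genes, and 0% passed the adjusted threshold by limma (780 at an unadjusted p under 0.05). That count was 20 without CSF1Ri+CD40 1, 3 without CD40 1 and 1 without CSF1Ri+CD40 3. The CD40 libraries helped choose the genes, so these values carry no test. The Il17f difference was 2.74 without CD40 3 and 5.03 without CD40 1, the Il22 difference 3.88 without CD40 2 and 6.13 without CD40 3, and the Il17a difference 2.94 without CD40 1. The erythroid sum was 13 and 501 in CSF1Ri+CD40 libraries and 876 to 1195 in CD40 libraries, and its part was not tested. With CD40 1 as the lone CD40 library beside the other libraries without Y-linked transcripts, the differences were 1.17 for Il17a and 1.02 for Il17f. The Il22 difference there moved by less than the spread between replicates. Il22 had 12 normalized counts in CD40 1, against 455 and 419 in the CSF1Ri+CD40 libraries.

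**Figure D2:**
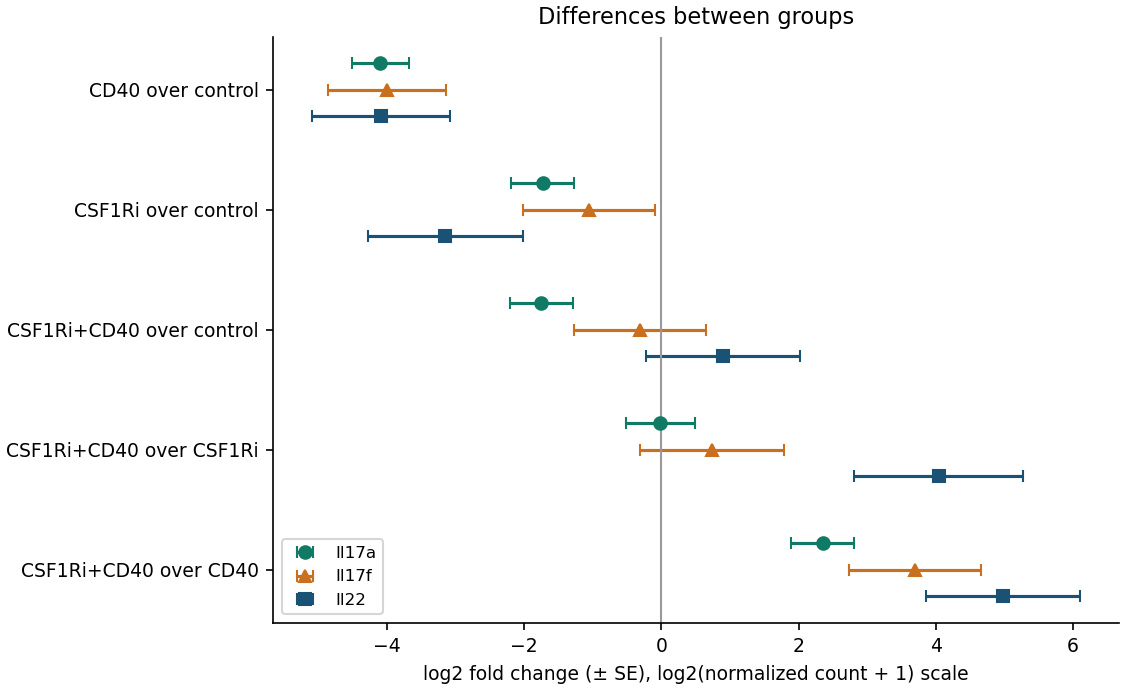
Log2 fold changes (points) with standard errors (bars) of Il17a, Il17f and Il22 in 5 contrasts, on the log2(normalized count + 1) scale. The 3 genes coincide near -4 in CD40 over control and spread apart in CSF1Ri+CD40 over CSF1Ri, from -0.02 for Il17a to 4.04 for Il22.

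Ratios taken within a library show how the balance among the cytokines varied. Per kilobase of annotated exon, Il17f over Il17a was 2.46, 0.702 and 0.389 in the CD40 libraries, 1.11 and 1.56 in the CSF1Ri libraries, 1.91 and 2.59 in the CSF1Ri+CD40 libraries, and 0.582, 1.12 and 0.852 in control. Both CSF1Ri+CD40 libraries exceeded every control library, and the CD40 libraries spanned nearly the whole range. The level of this ratio depends on the length taken for Il17f, whose longest transcript is shorter than its merged exons.

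Il22 over Il17a, per kilobase, was 0.0261, 0.0136 and 0.552 in the CD40 libraries, 0.0108 and 0.0538 in the CSF1Ri libraries, 0.395 and 0.452 in the CSF1Ri+CD40 libraries, and 0.0633, 0.0845 and 0.0577 in control. The combination had more Il22 per Il17a than control in both libraries. CD40 3 lay above both combination libraries, and CD40 1 and CD40 2 lay in the CSF1Ri range. Il22 reached 67 normalized counts in CD40 3, so its high ratio there came with the lowest Il17a level of the series.

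Trdc, the constant segment of the delta chain and thus a marker of gamma delta T cells, gave a second yardstick. Its normalized counts were 3527, 2450 and 5940 in the CD40 libraries, 3686 and 7133 in the CSF1Ri libraries, 3061 and 3123 in the CSF1Ri+CD40 libraries, and 6354, 5633 and 7929 in control. Per 100 Trdc counts, Il17a stood at 13.8, 6.33 and 2.15 in the CD40 libraries, 29.0 and 16.0 in the CSF1Ri libraries, 39.7 and 31.3 in the CSF1Ri+CD40 libraries, and 50.1, 65.2 and 53.2 in control. For Il17a the 4 groups did not overlap on this ratio, in the order CD40, CSF1Ri, CSF1Ri+CD40, control. That order includes the groups that chose the genes, and the share of all genes with such an order was not computed. On this ratio Il17a was 9.75-fold lower in CD40 than in control, a smaller gap than in the counts themselves. Il17f and Il22 did not follow the order, with the CSF1Ri+CD40 group above control. Per 100 Trdc counts, Il17f stood at 131 to 140 in CSF1Ri+CD40 libraries and 50.3 to 126 in control. Il22 stood at 13.4 to 14.9 and 2.91 to 5.22 in the same group order. Il17a is not confined to gamma delta T cells, so the ratio does not give a level per producing cell. The end of Trdc also overlaps Trdv5 on the opposite strand, and unstranded reads there cannot be assigned to either gene.

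**Figure D3:**
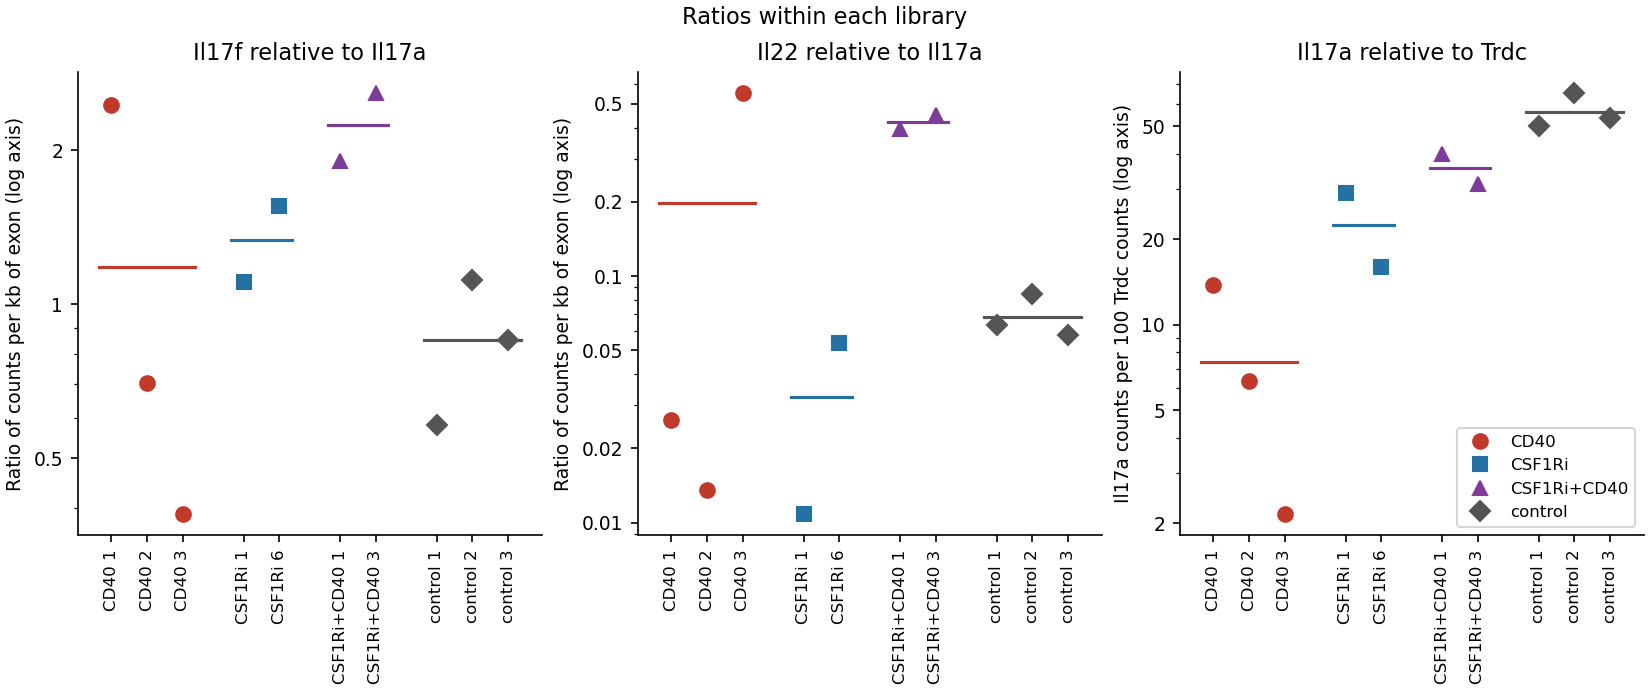
Within-library ratios (log axes) of Il17f to Il17a and of Il22 to Il17a per kilobase of exon, and of Il17a per 100 Trdc counts, where points are libraries and lines are group means. The Il22 to Il17a ratio is 0.395 and 0.452 in the CSF1Ri+CD40 libraries and 0.0577 to 0.0845 in control, and Il17a per 100 Trdc counts runs from 2.15 in CD40 3 to 65.2 in control 2.

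The wider IL-17 and IL-22 program was described with 85 tested genes of 122 listed symbols. The lists were written with earlier results of these data known. Their shares beside those of all genes are therefore a description and do not measure enrichment. None of the 85 passed the adjusted threshold in any of the 5 contrasts by limma. In CD40 over control, 56 of them had a log2 fold change below 0 and 29 above it. Their median was -0.31, beside -0.01 for all genes, and 13 lower and 4 higher ones had an unadjusted p under 0.05 (20% of the 85, beside 6.39% of all genes). Of all genes, 50.7% were below 0 in this contrast. Among the libraries without Y-linked transcripts, where CD40 1 faces control 2 and control 3, 42 were lower and 42 higher, with a median of 0, beside 0.02 for all genes. In CSF1Ri+CD40 over CSF1Ri the median was -0.20, beside -0.00 for all genes, with 5 lower and 1 higher at an unadjusted p under 0.05 (7.06%, beside 3.58% of all genes), and 50.3% of all genes were below 0. Those numbers were 2 and 1 in CSF1Ri over control, 9 and 2 in CSF1Ri+CD40 over control, and 2 and 5 in CSF1Ri+CD40 over CD40. With CSF1Ri+CD40 1 left out, 1 program gene passed in CSF1Ri+CD40 over control.

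Of the 16 transcription factors of type 17 cells, 15 had values below 0 in CD40 over control (median -0.54), and 11 had in the libraries without Y-linked transcripts (median -0.54). Ahr, a ligand-activated factor that promotes Il22 transcription, had 67, 43 and 27 normalized counts in CD40 libraries, against 256, 109 and 356 in control (-2.30 ± 0.67, adjusted p = 0.691 by limma). Maf, which sustains gamma delta T cells of the IL-17 kind, had -0.87 ± 0.33, and Rora, a nuclear receptor gene, -0.52 ± 0.27. Batf, a factor of several helper lineages, was the member on the other side of 0, at 0.53 ± 0.24. In CSF1Ri+CD40 over CSF1Ri, 9 of the 16 were below 0 (median -0.01). Ahr there had 126 and 285 in CSF1Ri+CD40 libraries, against 175 and 52 in CSF1Ri libraries.

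Of 19 tested receptors and surface genes of these cells, 14 were below 0 in CD40 over control (median -0.26), and 12 in the libraries without Y-linked transcripts (median -0.49). Il23r, the IL-23 receptor chain, had 68, 3 and 29 normalized counts in CD40 libraries, against 131, 95 and 146 in control (-2.60 ± 0.88, adjusted p = 0.722 by limma). It had 130 and 127 in CSF1Ri+CD40 libraries, against 220 and 212 in CSF1Ri libraries. Il1r1, the signaling IL-1 receptor, had 234, 104 and 641 in CD40 libraries, against 1160, 630 and 1209 in control, with a narrow overlap. Blk, a Src-family kinase needed by IL-17-producing gamma delta cells, had 1107, 320 and 1333 in CD40 libraries, against 2712, 1450 and 2809 in control. Tgfbr1, a TGF-beta receptor chain, was at -0.88 ± 0.29. Ccr6, a homing receptor of type 17 cells, was nearly level at 0.12 ± 0.39, as was the pan-T cell gene Cd3e at 0.23 ± 0.24.

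Of 12 tested gamma delta receptor chain genes, 9 were below 0 in CD40 over control (median -0.52), and 10 in the libraries without Y-linked transcripts (median -0.74). Their summed counts were 5950 to 13343 in CD40 libraries and 13201 to 18817 in control, and the part of this difference in the cytokine levels was not tested. Tcrg-C4, a gamma chain constant segment, had 427, 404 and 419 in CD40 libraries, against 1148, 1070 and 1235 in control (-1.46 ± 0.25, adjusted p = 0.532 by limma). Trdv5 was at -1.99 ± 0.51, Trdv4 at -1.20 ± 0.46 and Trdc at -0.82 ± 0.32. In CSF1Ri+CD40 over CSF1Ri, 10 of the 12 were below 0 (median -0.52). Trdv5 had 103 and 186 in CSF1Ri+CD40 libraries, against 412 and 698 in CSF1Ri libraries, and Tcrg-V4 had 108 and 156, against 332 and 550. Il22 and Il17f thus had higher means in the combination than with the inhibitor alone while these chains had lower ones. Gamma and delta segments sit within clusters of similar sequence, so reads may be split among them. In the annotation, Trdv5 (minus strand) also overlaps the end of Trdc (plus strand). Without strand information, reads from that stretch cannot be assigned to either gene.

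Other cytokines of T cells were mostly higher in CD40 libraries, though none passed the test. Of 15 tested, 12 were above 0 in CD40 over control (median 0.34), and 13 in the libraries without Y-linked transcripts (median 0.73). Il13, a type 2 cytokine, had 282, 535 and 155 normalized counts in CD40 libraries, against 49, 125 and 122 in control (1.64 ± 0.58, adjusted p = 0.722 by limma). Il9 had 56, 159 and 556 in CD40 libraries, against 0, 32 and 1 in control. Csf2, the gene of GM-CSF and often a product of type 17 cells, was at 0.90 ± 0.49, and its CD40 values of 267, 986 and 314 overlapped the control values of 317, 271 and 148. Ccl20, the ligand of Ccr6, had 0, 1 and 0 in CD40 libraries, against 48, 46 and 6 in control. Il21, a helper cytokine, was nearly level in CD40 over control (0.28 ± 0.86) and had 7 and 11 in CSF1Ri+CD40 libraries, against 53 and 52 in CSF1Ri libraries. Il10, of the same family as Il22, was at -0.15 ± 0.39 in CD40 over control. Like Il22, it was higher in both CSF1Ri+CD40 libraries (456 and 563) than in every other library, of which CSF1Ri 1 was highest at 432. The share of all genes with that order was not computed. The other IL-17 family genes, Il17b, Il17c, Il17d and Il25, were listed at 0 in every library.

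Upstream cytokines, receptors and target genes were also described. Il23a, which encodes the specific chain of IL-23, and the receptor genes Il17rd, Il22ra1 and Il22ra2 were listed at 0 in every library. A listing of 0 need not mean low expression in this table, since mt-Co3, a mitochondrial gene that every cell uses, was listed at 0 to 5. The 12 receptors and adaptors in the table summed to 5646 to 8743 normalized counts per library. The 8 tested receptors and adaptors had a median of 0.11 in CD40 over control. Traf3ip2, the adaptor of the IL-17 receptor, had 250 and 327 in CSF1Ri+CD40 libraries, against 129 and 95 in CSF1Ri libraries (1.36 ± 0.60, adjusted p = 1 by limma). Of 10 tested target genes, 8 were below 0 in CD40 over control (median -0.95), but 3 in the libraries without Y-linked transcripts (median 0.21). They include Zc3h12a, a feedback inhibitor of IL-17 signaling, at 38, 82 and 82 in CD40 libraries, against 229, 137 and 114 in control. S100a8, a gene that neutrophils express at high levels, had 120, 0 and 0 in CD40 libraries, against 72, 39 and 103 in control. These targets are known mainly from epithelial and myeloid cells, so their levels in T cell libraries need not follow the cytokines.

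**Figure D4:**
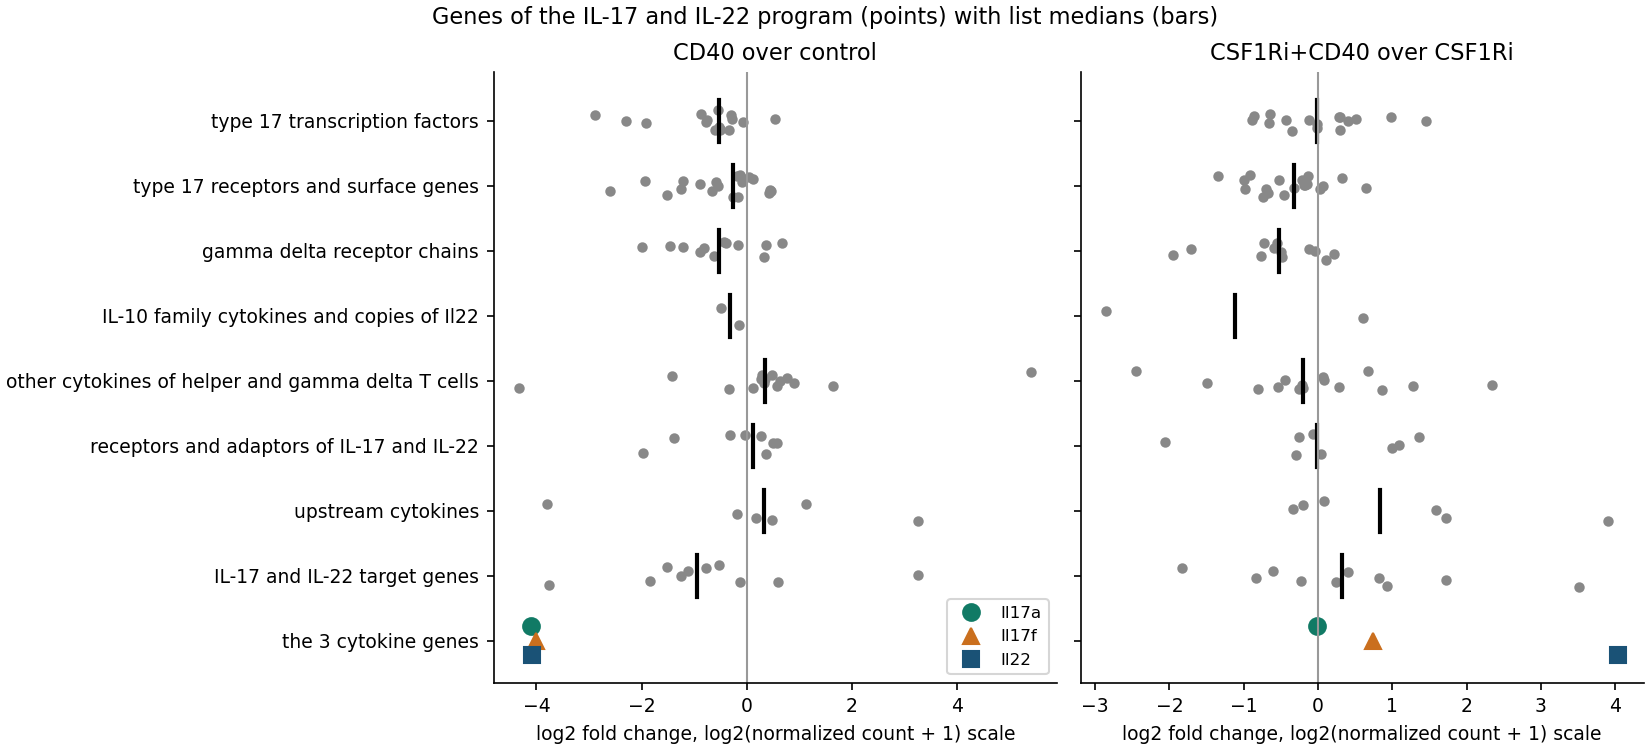
Log2 fold changes of single genes of the IL-17 and IL-22 program (grey points, with list medians as black bars) and of Il17a, Il17f and Il22 (colored symbols), for CD40 over control and for CSF1Ri+CD40 over CSF1Ri. The 3 cytokine genes, chosen on the first contrast, lie near -4 in it, as does the list gene Ccl20 at -4.33, and none of the grey points passed the adjusted threshold.

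No chromosomal neighbor of the 3 genes passed the test. Mcm3, a replication gene that lies 12351 bases from Il17f, had 1941, 1577 and 1519 normalized counts in CD40 libraries, against 1427, 1834 and 2117 in control (-0.08 ± 0.22). None of the 6 other tested genes within 500 kb of Il17f, Mcm3 among them, and none of the 7 within 500 kb of Il22 passed the adjusted threshold in any contrast by limma. Ifng, the type 1 cytokine gene that shares the Il22 locus, had 2659, 1949 and 203 in CD40 libraries, 1272 and 1157 in CSF1Ri libraries, 2145 and 2267 in CSF1Ri+CD40 libraries, and 876, 1063 and 563 in control. In CD40 1 and CD40 2, where Il22 was lowest among the CD40 libraries, Ifng was above every control library. It was also above every control library in both CSF1Ri libraries, where Il22 was low, and in both CSF1Ri+CD40 libraries, where Il22 was highest. In CSF1Ri+CD40 over control, 10.6% of all genes were higher without overlap.

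The genes with the most similar profile were sought by the root mean square difference of log2 values over the 10 libraries, after each gene was centered on its own mean. For Il17a, among 10478 genes with a mean of at least 50 normalized counts, the closest was Epc2 at 0.697, followed by Scarb1 at 0.747, and Il17f would have stood at place 3, at 0.858. Pcbp4, Armc5, Gpr137, Snora31, Pomk, Gnptab, Nhsl2 and Dnaaf5 came next, up to 0.995. For Il17f the closest were Ptdss2 at 0.834 and then Il17a, followed by Armc5, Ptrf, Epc2 and Nupr1. For Il22, among 13888 genes with a mean of at least 10, they were Rftn2 at 1.05, 4933424M12Rik, Exoc3l, Lrrc51 and Per2, while Il17a stood at place 167 and Il17f at place 454. The Il17 genes thus resembled each other more closely than either resembled Il22. None of the listed genes belongs to the type 17 lists, and their means of 17.2 to 221 normalized counts were far below those of the Il17 genes. Over so few libraries, likeness of this size is a description of these libraries alone.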

How the data were processed

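RNA-seq had been made from T cells of pooled melanomas (10 libraries, 4 groups) from 50 ng of total RNA without strand information, per the labels. The deposited table holds whole-number normalized values, recorded here as a score because the authors scaled and rounded them. The submitters' processing notes name STAR, HTSeq, DESeq2 and GRCm38 (mm10). Versions and settings are not given in the sources used here. Whole reads could not be recovered, so the count model reserved for raw counts was not run, and limma was used as planned. Median-of-ratios factors recomputed from the table were 1.029 to 1.031, so no rescaling was done.

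Genes with at least 10 in 2 or more libraries (15716 of 48825) were tested with limma 3.58.1 (R 4.3.3, trended variance, Benjamini-Hochberg adjustment, two-sided) on log2(value + 1), in 1 fit with the 4 groups as a factor and 6 residual degrees of freedom. The 4 rows with repeated names stayed separate, and 0 columns of per-sample values were left unused. The script was tested on simulated data. Levels per kilobase used the merged exons of GENCODE vM21. Tables and figures used Python 3.11.15.

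The members and gene lists were chosen with earlier results of these data known. Named genes were a set group, up to 3 per list with the smallest p in CD40 over control and in CSF1Ri+CD40 over CSF1Ri, the genes closest in profile, and tested neighbors within 500 kb. Genes named for standing at 0 were picked after their values were seen. Replicates are separate tumor pools, per the labels. Some items of the lists and labels are not reported here.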

Additional observations from a re-analysis of the deposited data

Results flagged for a closer look

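For each of the 3 genes, the differences that went with an agent had opposite signs without and with the other agent. For Il17a this was so of the inhibitor alone, since the CSF1Ri+CD40 and CSF1Ri libraries overlapped, and the Il17f difference between CSF1Ri+CD40 and CSF1Ri (0.74, 95% interval -1.57 to 3.05) passed no test. CD40 antibody went with lower Il17f and Il22 in every library when given alone, against control, and with higher values in every library when given with the inhibitor, against the inhibitor alone. The CSF1R inhibitor went with lower Il17a, Il17f and Il22 when given alone, against control, and with higher values in every library on top of CD40 antibody, against CD40 alone. The difference between the CD40 effect with and without the inhibitor, on the log2 scale, was 4.08 ± 0.65 for Il17a, 4.75 ± 1.36 for Il17f and 8.13 ± 1.59 for Il22 (SE). This difference was not tested for the members, since the CD40 and control libraries had chosen the genes. Choosing genes for low CD40 and high control values by itself favors opposite signs for the inhibitor. It also sets the sign of CD40 over control, so the sign pattern is a description. The share of all genes with such opposite signs was not computed. Over all genes, 0 of 15716 passed the adjusted threshold for it by limma, with 655 at an unadjusted p under 0.05. The difference contains the low CD40 values, 2 of 3 of which come from libraries with Y-linked transcripts.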

How the results depend on the processing

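Across the alternatives, 254 of 258 member differences without a test moved by less than the spread between replicates, and 57 of 60 repeats of the tested contrast kept their direction and side of the threshold. Changes of filter, of the variance trend or of libraries outside a contrast cannot move a fold change, so many of these repeats were fixed in advance. The spread was also wide: Il17f in CD40 over control counted as unmoved when it went from -4.01 to -5.34 without CD40 1. These counts therefore say little about robustness. Adjusted p for Il22 in CSF1Ri+CD40 over CSF1Ri ran from 0.766 to 1. With libraries without Y-linked transcripts only, where CD40 1 stands alone and is assumed to vary like the others, Il17a was -3.02 in CD40 over control and 1.17 in CSF1Ri+CD40 over CD40, and Il17f -1.69 and 1.02. In that same setting Il22 was -4.33 in CD40 over control. Il17a in CSF1Ri+CD40 over CSF1Ri turned to 0.047 with a Malat1 term and ran from -0.17 to 0.14 with a replicate left out.

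Genes called were few in any setting. In CD40 over control there were 0 with no filter, with only the groups compared, and in libraries without Y-linked transcripts, 2 with no variance trend, and 0 to 3 with a replicate left out. In CSF1Ri over control there were 0 with a pseudocount of 5, no filter, a minimum of 50, quantile normalization, only the groups compared, libraries without Y-linked transcripts, a Malat1 term or any replicate left out (0 to 0), and 6 with no trend. In CSF1Ri+CD40 over control there were 1 with a pseudocount of 5, 1 with a minimum of 50, 13 with no trend and 0 to 36 with a replicate left out, of which 0 to 1 were type 17 program genes. In CSF1Ri+CD40 over CSF1Ri there were 15 with no trend and 0 to 6 with a replicate left out, and in CSF1Ri+CD40 over CD40 9 and 0 to 20. The cause was not tested.

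The replicate block, fitted without the CSF1Ri libraries, called 0 genes in CD40 over control, against 1 without the block. Shared numbers were not taken as pairs: deviations of same-numbered libraries correlated between -0.21 and 0.14 over 7 pairs, and 1 of 3 CD40 libraries was closest to the control of its own number. With the longest transcript as length, Il17f over Il17a averaged 2.29 in CSF1Ri, 3.86 in CSF1Ri+CD40 and 1.46 in control. Group sizes of 2 and 3 and Il22 values down to 2 normalized counts limit the precision.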
